A study of Mus musculus with 18 samples.

Results

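Heat shock proteins and J-domain proteins are the cell's main protein-folding helpers, and 74 of the 57010 genes in the count table belonged to them by name. They were chosen by symbol alone, as 29 genes with heat shock protein names (Hspa, Hspb, Hspd, Hspe, Hsph and Hsp90 names) and 45 J-domain genes (4 Dnaja, 13 Dnajb and 28 Dnajc names), without pseudogenes. The Hspb names take in Hspbp1 and Hspbap1, which are not small heat shock proteins. RNA came from CD11b-selected brain cells, labelled microglia and macrophages, of male wild-type mice, after neutrophils had been depleted with Ly6G beads. The groups, each of 3 libraries and all cells taken on day 3, were aged mice (18 to 20 months) with a stroke given bexarotene, aged mice with a stroke given vehicle, aged mice given bexarotene, aged mice given vehicle, young mice (2 to 4 months) given bexarotene and young mice given vehicle. Bexarotene activates the retinoid X receptor. It was injected into the peritoneum at 5 mg/kg, starting 24 hours after surgery and repeated on each of 2 further days, and vehicle mice received 3% DMSO in saline. The stroke was an occlusion of the middle cerebral artery, and the sources used here do not say what surgery the other mice had. Brains of all groups were dissociated with papain and DNase in warmed tubes before selection.

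Chaperones of the HSP70 family (Hspa genes) bind unfolded stretches of protein and release them with the help of ATP. J-domain proteins bring clients to HSP70 and start its ATP cycle, HSP110 proteins such as Hsph1 exchange its nucleotide, and HSP90 acts later on a narrower set of clients such as kinases and steroid receptors. Some members are always made, some serve the endoplasmic reticulum or mitochondria, and others, led by Hspa1a and Hspa1b, are made on demand when heat shock factor 1 binds repeats of the unit GAA in their promoters. In brain tissue, microglia take up debris and secrete proteins, and both tasks draw on the folding machinery.

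Total counts per library were 16206144 to 29359943 in the 2 stroke groups and 7582511 to 11852638 in the 4 groups without stroke. Microglial markers (10 genes) summed to 19930 to 25408 CPM (counts scaled by library size) in stroke libraries and 45409 to 64652 CPM in the others, and 11 monocyte and macrophage markers summed to 4763 to 10404 CPM with stroke and 300 to 540 CPM without. In bulk RNA, fewer cells of a type and less RNA per cell cannot be told apart. The 6 libraries numbered 1 were the highest of their group in choroid plexus markers in 5 groups, at 1814 to 3288 CPM, against 212 to 1181 CPM in the other libraries of those groups. Bexarotene libraries of aged mice without stroke also held more neutrophil marker RNA, 637 to 1558 CPM against 210 to 416 CPM with vehicle.

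Promoter windows are shown because most heat-inducible members with a window hold a short motif there that the choice by name did not use. The letters searched on both strands were GAANNTTC and TTCNNGAA, and longer forms in which the first is followed by NNGAA and the second by NNTTC, so that every longer match also holds a shorter one. RefSeq windows of the GRCm38.p6 build, 250 bases before to 50 bases after each annotated start, matched 60 members by symbol. In the lines that follow, capitals mark the matched letters, and for Hspa1a and Hspa1b the whole 250 bases before the start are printed because these neighbours on chromosome 17 differ there at only 3 positions (98.8% identity).
Hspa1a, chr17:34972157-34972406, minus strand: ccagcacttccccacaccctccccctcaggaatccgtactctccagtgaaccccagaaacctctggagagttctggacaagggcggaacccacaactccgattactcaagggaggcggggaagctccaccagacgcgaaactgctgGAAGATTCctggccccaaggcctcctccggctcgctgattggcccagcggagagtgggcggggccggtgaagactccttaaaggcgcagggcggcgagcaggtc
Hspa1b, chr17:34959239-34959488, minus strand: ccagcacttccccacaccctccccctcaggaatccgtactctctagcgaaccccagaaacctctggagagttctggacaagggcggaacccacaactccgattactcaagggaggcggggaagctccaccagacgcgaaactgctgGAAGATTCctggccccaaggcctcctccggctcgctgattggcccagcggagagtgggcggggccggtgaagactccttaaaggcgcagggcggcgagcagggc
Hspd1, chr1:55088034-55088101, minus strand: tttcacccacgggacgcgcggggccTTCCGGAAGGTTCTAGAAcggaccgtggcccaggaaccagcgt
Dnaja1, chr4:40722319-40722376, plus strand: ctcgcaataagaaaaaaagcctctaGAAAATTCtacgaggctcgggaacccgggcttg
Dnaja4, chr9:54699444-54699539, plus strand: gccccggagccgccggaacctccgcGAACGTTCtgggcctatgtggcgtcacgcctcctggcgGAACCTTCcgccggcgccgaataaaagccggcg
Dnajb6, chr5:29735827-29735889, plus strand: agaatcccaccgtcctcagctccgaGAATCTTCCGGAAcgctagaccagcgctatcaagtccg
The Hspd1 stretch also precedes Hspe1, which is read from the opposite strand, so the same letters count for both, and the match of Hsph1 lies after its annotated start and is not printed. The shorter letters were found in 9 of 12 heat-inducible members with a window (75%), in 7 of the 48 other members (14.6%) and in 17% of all 27025 genes with one. They were not found for Dnajb1, Dnajb5, Hspa8, Hsp90aa1 and Hspa4l, some of which had no window. The longer letters were in 4 members, Hspd1, Hspe1, Hsph1 and Dnajb6 (6.67% of 60), and in 0.662% of all genes. The heat-inducible list was not drawn by name alone, and Hspa1a and Hspa1b, with near-identical windows, both count in it, so its share is not a test. A match is a description of these windows and not of binding.

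Of the 74 members, 63 passed the filter on low counts and were tested, and the other 11 averaged at most 0.267 CPM over the 18 libraries. Those 11 were Hspa1l, Hspa12b, Hspb2, Hspb7, Hspb9, Dnajb3, Dnajb8, Dnajc5b, Dnajc5g, Dnajc6 and Dnajc22, and Dnajc5g had no count in any library. All members together took 0.716% to 1.56% of a library's counts. Per kilobase of exon, the highest levels were those of Hspa5, the HSP70 of the endoplasmic reticulum (514 CPM per kb, mean of 18 libraries), and Hspa8, a cytosolic HSP70 that is made constitutively and further with heat, and is counted here in the heat-inducible list (500 CPM per kb). Next came the HSP90 of the endoplasmic reticulum, Hsp90b1 (287 CPM per kb), the cytosolic Hsp90ab1 (229 CPM per kb) and Dnajb11, an endoplasmic reticulum J-domain protein (61.4 CPM per kb). Hspa1b (21.7 CPM per kb) and Hspa1a (11.6 CPM per kb) were lower on average.

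Hspa1a and Hspa1b encode near-identical inducible HSP70 proteins, and 58.8% of the 50-base words of the Hspa1a transcript also occur in Hspa1b, so the division of reads between the pair is uncertain and their sum is given first. Such words also occur in other genes for Hsp90aa1 (47.5%), Hspd1 (42.1%) and Hspa8 (39.4%), whose levels are given as counted. The summed level of the Hspa1 pair was 13, 31.5 and 18.3 CPM in aged stroke bexarotene libraries, against 26.1, 61.9 and 22.1 CPM in aged stroke vehicle libraries. It was 243, 26.3 and 29.8 CPM in aged bexarotene libraries, against 45.0, 216 and 578 CPM in aged vehicle libraries. In young mice it was 14.5, 28.3 and 13.6 CPM with bexarotene, against 157, 108 and 79.1 CPM with vehicle. The groups overlapped in both aged settings and did not overlap in young mice, and the 6 highest sums were all in mice without stroke, 5 of them with vehicle. Library 1 of the aged bexarotene group and library 3 of the aged vehicle group stood apart from the others of their groups.

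**Figure D1:**
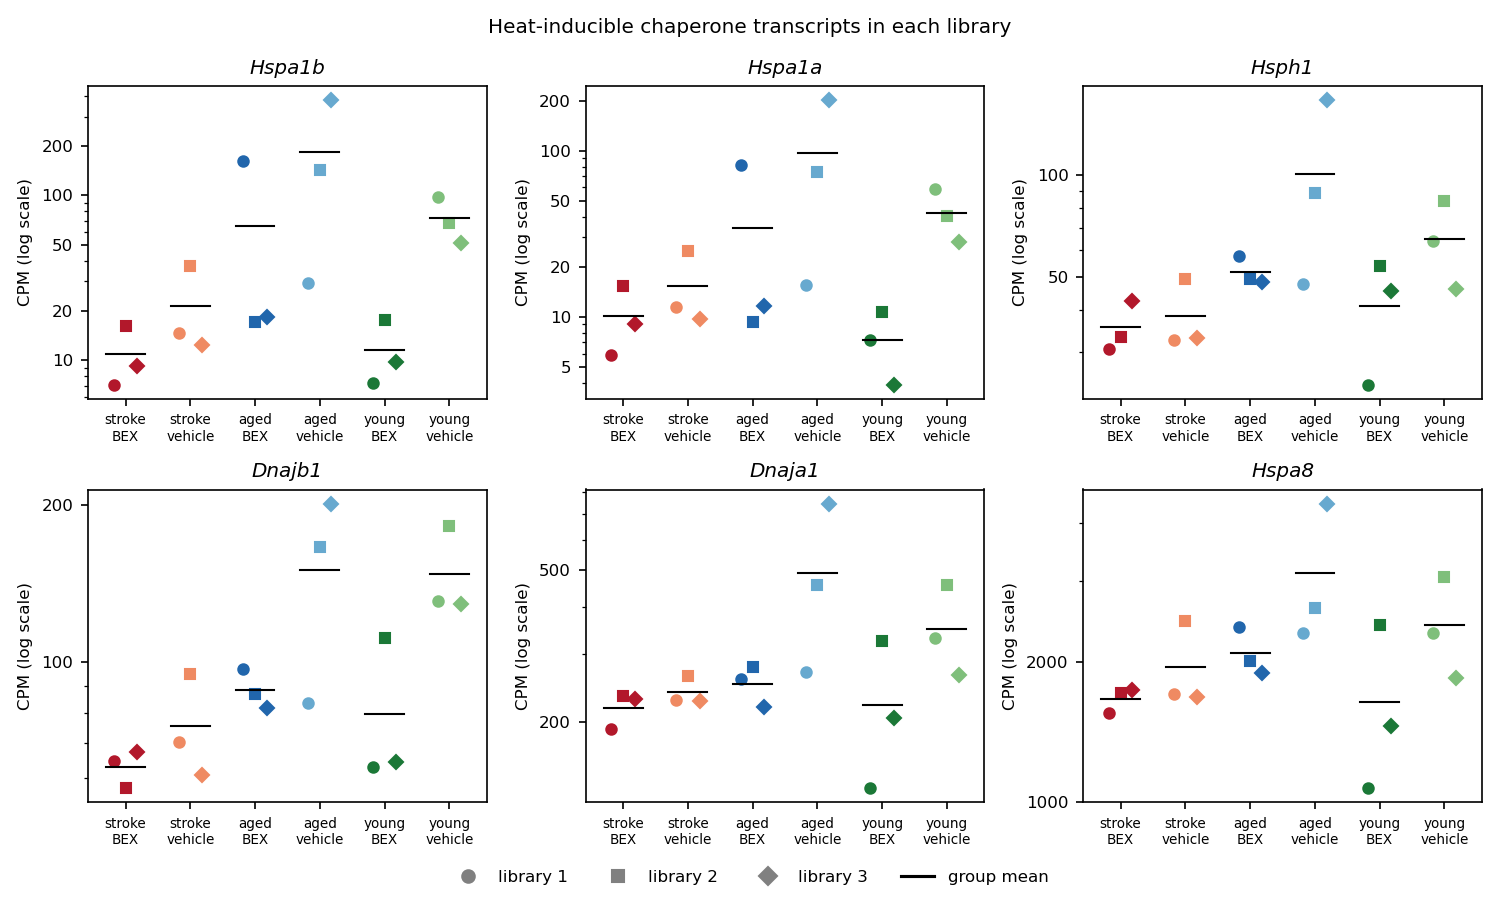
CPM on a log axis for 6 heat-inducible members in each of the 18 libraries, with marker shapes for the library number and black lines for group means. Aged vehicle library 3 is the highest point in all 6 panels, while aged bexarotene library 1 stands apart for Hspa1b (161 CPM) and Hspa1a (81.5 CPM) and not for Dnajb1 (97.2 CPM) or Dnaja1 (259 CPM).

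Single members showed the same libraries. Hspa1b had 161, 17.0 and 18.3 CPM in aged bexarotene libraries, against 29.5, 142 and 377 CPM in aged vehicle libraries. Hsph1, the cytosolic HSP110, had 57.6, 49.4 and 48.4 CPM in aged bexarotene libraries, against 47.6, 88.5 and 167 CPM in aged vehicle libraries. Dnaja1, a J-domain partner of cytosolic HSP70, had 259, 278 and 218 CPM with bexarotene, against 270, 455 and 745 CPM with vehicle. The high library of the bexarotene group was thus high for Hspa1b and only slightly above its group for Hsph1, whereas vehicle library 3 was high for all 3 genes. That library also held the highest Hsp90ab1 of all 18, 1643 CPM against 446 to 938 CPM in the other 17, and the highest Hspa8, 4404 CPM against 1071 to 3060 CPM.

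Aged vehicle library 3 was the highest of the 18 libraries for 15 of 63 tested members (23.8%), 10 of them among the 14 heat-inducible genes, and for 4.17% of all genes tested. Its summed level of 20 immediate early genes, which are made quickly when cells are handled or stimulated, was 2682 CPM. That was the lowest of the 18 libraries by a small margin, with 2729 CPM in young vehicle library 2. The part of handling was not tested. Within groups, the genes of the lists read here whose log2 levels moved most like Hspa1b, as Pearson's r of deviations from the group mean over 18 libraries, were Hspa1a (0.98), the HSP70 co-chaperone Bag2 (0.78), Hsp90ab1 (0.73), Stip1, which links HSP70 to HSP90 (0.73), Hsp90aa1 (0.72) and Hsph1 (0.72). Genes outside these lists also stood above Bag2, among them CT009630.1 (0.89), Ebna1bp2 (0.85) and Rnf14 (0.83), so closeness to Hspa1b was not limited to chaperones. Over all genes tested the median r was -0.01 and the 95th percentile 0.45, and aged vehicle library 3 weighs in every such r. Dnajb6, which holds the longer motif, ranged only from 160 to 206 CPM over the 18 libraries.

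**Figure D2:**
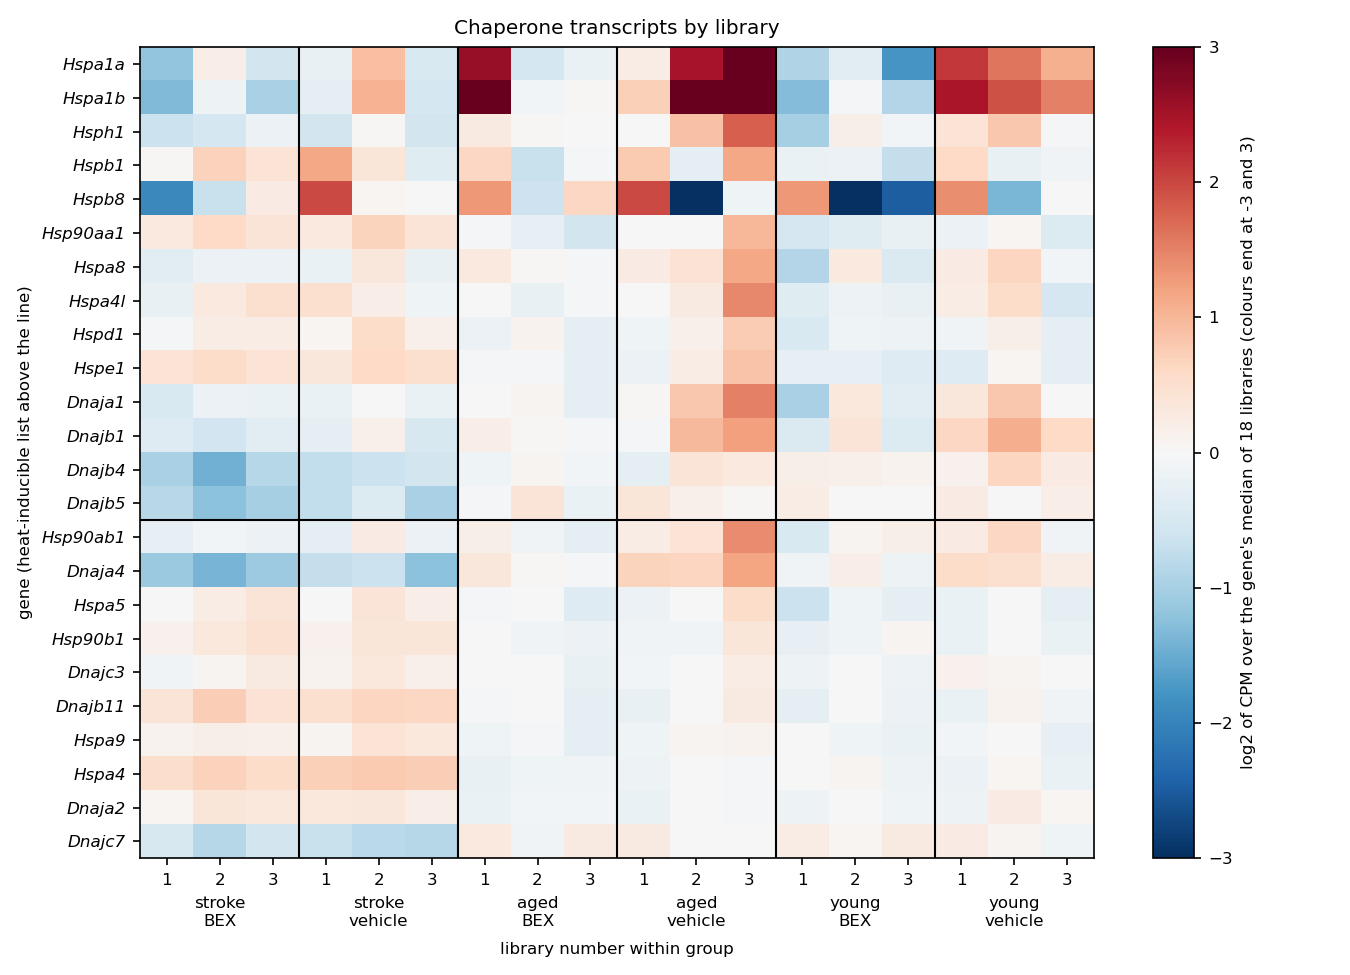
Log2 of CPM over each gene's median of 18 libraries, for the 14 heat-inducible members and 10 others, with libraries numbered within each group. Aged vehicle library 3 holds the highest cell for 10 of the 14 heat-inducible members, and Dnajb4 (14.4 to 26.6 CPM) and Dnajb5 (11.3 to 19.9 CPM) are low across the 6 stroke libraries.

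Hspa8 had 1556, 1719 and 1740 CPM in aged stroke bexarotene libraries, 1713, 2464 and 1685 CPM in aged stroke vehicle libraries, 2388, 2018 and 1895 CPM in aged bexarotene libraries, 2311, 2627 and 4404 CPM in aged vehicle libraries, 1071, 2413 and 1457 CPM in young bexarotene libraries and 2321, 3060 and 1851 CPM in young vehicle libraries. Hspd1, the mitochondrial HSP60, had in the same order of groups 144, 174 and 174 CPM, 154, 218 and 166 CPM, 131, 161 and 123 CPM, 137, 166 and 253 CPM, 108, 136 and 133 CPM, and 139, 169 and 122 CPM. Both were highest in aged vehicle library 3 and varied less than the Hspa1 pair. Hspe1, its HSP10 partner, had 75.9, 84.5 and 76.3 CPM with stroke and bexarotene, 72.4, 87.2 and 79.6 CPM with stroke and vehicle, 54.6, 54.6 and 47.1 CPM in aged bexarotene, 50.4, 66.6 and 104 CPM in aged vehicle, 48.5, 48.1 and 43.8 CPM in young bexarotene and 43.8, 60.1 and 46.9 CPM in young vehicle libraries. Hspa4l, an HSP110 relative, had 12.4, 17.9 and 20.3 CPM with stroke and bexarotene, 20.4, 16.7 and 13.4 CPM with stroke and vehicle, 14.7, 12.4 and 13.9 CPM in aged bexarotene, 14.4, 17.6 and 39.2 CPM in aged vehicle, 11.3, 13 and 12.5 CPM in young bexarotene and 16.9, 21.2 and 10.2 CPM in young vehicle libraries. Hspe1 and Hspa4l were also highest in aged vehicle library 3. The small heat shock proteins of the heat-inducible list, Hspb1 and Hspb8, were scarce. Hspb1 lay between 0.571 and 2.11 CPM and Hspb8 between 0.0978 and 4.17 CPM over the 18 libraries. The groups of both overlapped in every comparison. Hspb8 was highest in library 1 of every group but aged stroke bexarotene, as was the sum of choroid plexus markers, and this likeness was not tested. Hspb3, outside that list, lay between 7.70 and 17.9 CPM.

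The series title names the retinoid X receptor as a mediator of recovery after stroke, and bexarotene was set against vehicle in 3 settings. No member was called between bexarotene and vehicle in any of them. The counts were 0 of 63 in aged mice with stroke, where 0.0580% of all genes tested were called (0.0515% higher and 0.00644% lower), 0 in aged mice, where 0.258% were (0.238% higher and 0.0193% lower), and 0 in young mice, where 0.509% were (0.419% higher and 0.0902% lower). The counts with an unadjusted p under 0.05 were 5, 12 and 8 of the 63 members in these 3 settings, beside 988, 1012 and 1300 of all 15528 genes tested, by the same edgeR quasi-likelihood test, and DESeq2 on all libraries called 0, 0 and 1 member. All 14 heat-inducible members had a log2 fold change below 0 in aged and in young mice, and in mice with stroke 13 did, while Hspa4l was at -0.00, its CPM averaging 16.9 with bexarotene and 16.8 with vehicle. Their median log2 fold change was -0.18 in aged mice with stroke, -0.65 in aged mice and -0.52 in young mice, where the median of all genes tested was 0.00, -0.00 and 0.00. The 14 are not independent of each other. Aged vehicle library 3, the highest of the 18 libraries for 10 of them, weighs in the median of aged mice without stroke.

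**Figure D3:**
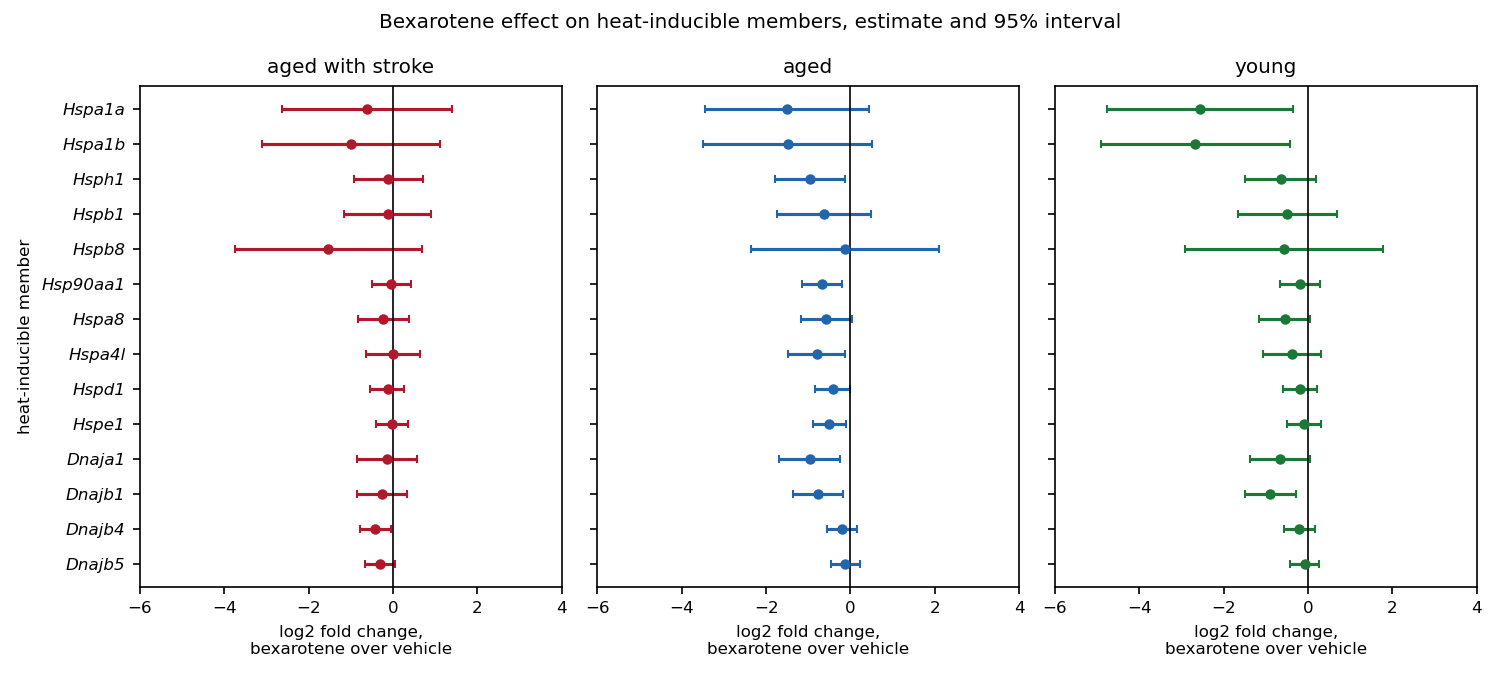
Log2 fold change of bexarotene over vehicle with its 95% interval for the 14 heat-inducible members, in aged mice with stroke, aged mice and young mice (3 libraries per group). The points lie left of 0, apart from that of Hspa4l in mice with stroke, which lies at 0, and the intervals of Hspa1a, Hspa1b and Hspb8 are wide.

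In young mice the members with the lowest p included several whose groups did not overlap. Dnajb1, the main heat-inducible J-domain protein, had 63, 111 and 64.5 CPM with bexarotene, against 131, 182 and 129 CPM with vehicle, which gave a log2 fold change of -0.89 ± 0.28 (SE, here and in later values; n = 3 each; adjusted p = 0.280, edgeR quasi-likelihood). Hspa1b had 7.29, 17.5 and 9.71 CPM with bexarotene, against 98.1, 67.8 and 51.1 CPM with vehicle, a log2 fold change of -2.67 ± 1.03 (adjusted p = 0.458, edgeR quasi-likelihood). Hspa1a had 7.19, 10.7 and 3.90 CPM with bexarotene, against 58.6, 40.5 and 28.0 CPM with vehicle (-2.56 ± 1.01, adjusted p = 0.478, edgeR quasi-likelihood). All 3 were lower in every bexarotene library than in any vehicle library. The other members with the lowest p were Dnajb14, an endoplasmic reticulum J-domain protein (-0.51 ± 0.15), the endosomal Dnajc13 (-0.49 ± 0.16) and Dnajc28, listed as mitochondrial (-0.47 ± 0.18). In all, 9 members were lower without overlap and 1 was higher, where 6.01% and 7.09% of all genes were.

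For these 3 heat-inducible genes the call depended on the tool and on the libraries fitted. The authors' deposited table for young mice lists Hspa1b at a log2 fold change of -2.53 with an adjusted p of 1.42e-17, Hspa1a at -2.39 with 1.5e-12 and Dnajb1 at -0.68 with 0.00246, and no other member is among its 197 genes. The authors' deposited tables for bexarotene in aged mice with stroke, bexarotene in aged mice, and age list 0 members. DESeq2 fitted to the 6 young libraries alone called the same 3 members and 197 genes in all, a fit chosen after the deposited table was seen, whereas DESeq2 on all 18 libraries called Dnajb1 alone and limma voom none.

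In aged mice without stroke the members with the lowest p were cytosolic. Hsp90aa1, the inducible HSP90, had 182, 160 and 128 CPM with bexarotene, against 187, 190 and 374 CPM with vehicle (-0.68 ± 0.22, adjusted p = 0.458, edgeR quasi-likelihood). Hsp90ab1 had 693, 572 and 504 CPM with bexarotene, against 710, 813 and 1643 CPM with vehicle (-0.84 ± 0.28). The groups did not overlap for either gene, and vehicle library 3 was far above the rest for both. The others with the lowest p were Dnaja4 (-0.73 ± 0.19, adjusted p = 0.221, edgeR quasi-likelihood), Dnajb2, a J-domain protein that guides clients to the proteasome (-0.54 ± 0.18), and Dnaja1 (-0.96 ± 0.34). In this setting 5 members were lower and 1 was higher without overlap, against 5.32% and 6.47% of all genes. The log2 fold change of Hspa1b in aged mice, -1.49 over all libraries, was -0.40 without aged vehicle library 3 and -3.37 without aged bexarotene library 1, with no call in either case. It was called only in the fit without a filter on low counts, at -1.53 (adjusted p = 1.38e-22, edgeR quasi-likelihood). With the filter the adjusted p was 0.885 (edgeR quasi-likelihood). The groups overlapped, so the unfiltered p-value cannot be taken as a measure of the spread between libraries.

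In aged mice with stroke the 5 members with the lowest p were the J-domain genes Dnajc18 (-0.37 ± 0.14), Dnajb4 (-0.42 ± 0.17), Dnajb13 (0.80 ± 0.33) and Dnajc1 (0.26 ± 0.11), and Hspa13, an HSP70 of microsomes (-0.28 ± 0.13), with adjusted p between 0.596 and 0.768 (edgeR quasi-likelihood). Ucp2, whose exons overlap those of Dnajb13 on the other strand, was at 0.27 ± 0.23, and the part of this overlap was not tested. Here 4 members were lower and 2 higher without overlap, against 5.48% and 5.81% of all genes. Hspa1b had 7.11, 16.2 and 9.18 CPM with bexarotene, against 14.6, 37.0 and 12.4 CPM with vehicle (log2 fold change -1.0, 95% interval -3.11 to 1.11), and the groups overlapped. Choroid plexus markers also differed between these groups, at 146 to 734 CPM with bexarotene and 948 to 3288 CPM with vehicle, and their part in the result was not tested.

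The mean bexarotene effect over the 3 settings gave 1 called member, which was lower, where 2.09% of all genes were called (1.38% higher and 0.715% lower). Dnaja4, a cytosolic partner of HSP70 with a pair of GAA-motif matches in its window, fell by 0.50 ± 0.11 on the log2 scale (adjusted p = 0.0219, edgeR quasi-likelihood with BH). It had 6.0, 4.95 and 6.12 CPM in aged stroke bexarotene libraries, against 7.86, 8.23 and 5.51 CPM in aged stroke vehicle libraries. It had 16.5, 13.3 and 12.6 CPM with bexarotene, against 20.5, 20.4 and 29.2 CPM with vehicle in aged mice, and 12, 14.8 and 11.6 CPM with bexarotene, against 19.0, 18.1 and 15.0 CPM with vehicle in young mice. The groups did not overlap in mice without stroke and overlapped through 1 vehicle library in mice with stroke. The call was lost under 7 of 25 alternatives, with adjusted p from 0.00273 to 0.168: without the 6 libraries numbered 1, and without any single one of young vehicle library 1, young bexarotene library 3, aged vehicle library 3, aged bexarotene libraries 2 and 3 and aged stroke vehicle library 1. Exons of Dnaja4 overlap those of Wdr61 on the other strand over 44.1% of their length, and Wdr61 had a mean effect of -0.00 ± 0.06. The part of this overlap was not tested. Dnajb14 (-0.33 ± 0.09, adjusted p = 0.0555) and Dnajb1 (-0.64 ± 0.16, adjusted p = 0.0567) were not called in the same edgeR quasi-likelihood test, and Hspa1b was at -1.72 ± 0.56 (adjusted p = 0.190).

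Whether the bexarotene effect differed between settings was tested directly. No member and 0 genes in all (0% of genes tested) were called by edgeR for the difference between aged and young mice or between aged mice with and without stroke, with 1 member in each case, and 456 and 638 of all genes, at an unadjusted p under 0.05, and DESeq2 and limma voom also called 0 members. Dnajc28 had the lowest p for aged minus young (0.57 ± 0.26, adjusted p = 1, edgeR quasi-likelihood). Dnajc19, part of the mitochondrial import motor, had the lowest p for stroke minus no stroke (-0.33 ± 0.15, unadjusted p = 0.0380, adjusted p = 1, edgeR quasi-likelihood). It had 30.1, 32.1 and 31.9 CPM in aged stroke bexarotene libraries, against 35.5, 32.9 and 32.9 CPM in aged stroke vehicle libraries, and 37.1, 42.5 and 39.5 CPM in aged bexarotene libraries, against 34.4, 32.9 and 34.9 CPM in aged vehicle libraries. Bexarotene libraries were all lower with stroke and all higher without it. For Hspa1b the difference was 1.18 for aged minus young, and its sign turned without aged bexarotene library 1.

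With age, no member was called between aged and young vehicle mice, where 1.70% of all genes were (1.26% higher and 0.438% lower), and 7 of 63 members, beside 2034 of 15528 genes, had an unadjusted p under 0.05 (edgeR quasi-likelihood). DESeq2 and limma voom also called 0 members. Of the 14 heat-inducible members, 13 had a fold change above 0, with a median of 0.51 against -0.01 for all genes, and 0 of the 14 separated the groups. Aged vehicle library 3, the highest of the 18 libraries for 10 of these 14 genes, weighs in this median. The lowest p was that of Hspa12a, a distant HSP70 relative, which had 10.1, 14.0 and 11.6 CPM in aged libraries, against 7.06, 4.18 and 7.68 CPM in young libraries (0.90 ± 0.28, adjusted p = 0.131, edgeR quasi-likelihood). These groups did not overlap, whereas those of Hspe1, the mitochondrial HSP10 (0.56 ± 0.19), the endoplasmic reticulum stress gene Dnajb9 (0.39 ± 0.14), Dnajc13 (-0.42 ± 0.16) and Hsp90aa1 (0.58 ± 0.22) did. Over all members, 3 were higher and 4 lower without overlap, against 9.69% and 8.75% of all genes. The log2 fold change of Hspa1b, 1.34 over all libraries, was 0.24 without aged vehicle library 3. It was called only without a filter on low counts, at 1.38 (adjusted p = 7.28e-19, edgeR quasi-likelihood). With the filter the adjusted p was 0.615 (edgeR quasi-likelihood), and since the groups overlapped, the unfiltered p-value cannot be taken as a measure of their spread.

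With stroke members were called in both directions, in a total share close to that of all genes. The share that rose was smaller than over all genes and the share that fell was larger. In vehicle-treated aged mice 28 of 63 tested members were called, 10 higher and 18 lower, where 48.3% of all genes were called (27.2% higher and 21.1% lower). J-domain genes stood on both sides, Dnajc28, Dnajb2 and Dnaja4 among those that fell and Dnajc9, Dnajc13 and Dnajc10 among those that rose. Per role, 7 of 14 heat-inducible members fell and 0 rose, 2 of 11 endoplasmic reticulum members rose and 2 fell, 2 of 10 mitochondrial members rose and 1 fell, and 5 of 15 constitutive members rose and 4 fell. The median log2 fold change was -0.74 over the heat-inducible list and 0.02 over all genes tested. Aged vehicle library 3, the highest of the 18 libraries for 10 of the 14 listed genes, weighs in the former. The microglial and monocyte marker levels given above differed between the same libraries, and their part in these results was not tested.

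The same contrast in bexarotene-treated aged mice uses other libraries and was added after the first was seen. It called 32 members, 14 higher and 18 lower, where 48.0% of all genes were called (26.8% higher and 21.2% lower). All 10 members that rose in vehicle mice also rose there, which is 71.4% of the 14, and 12 of the 18 that fell also fell, or 66.7% of either list. Over all genes, 85.3% of the higher and 78.7% of the lower calls of the vehicle contrast were called again. The 2 contrasts share no library, and the direct test of their difference, the same as that of the bexarotene effect between aged mice with and without stroke, called 0 genes.

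**Figure D4:**
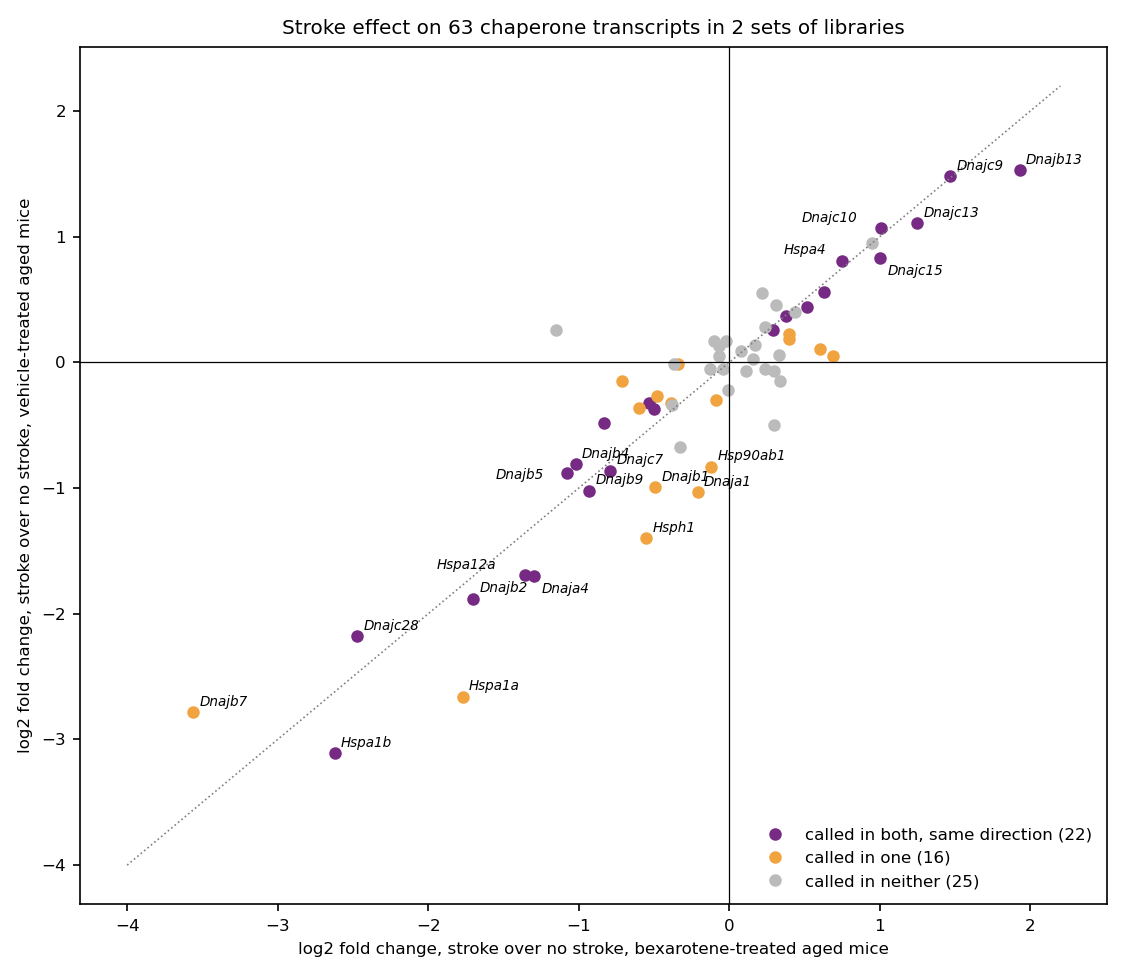
Log2 fold change of stroke over no stroke for the 63 tested members, in bexarotene-treated aged mice on the x axis and vehicle-treated aged mice on the y axis, with 3 libraries per group and a dotted line of equality. The 22 members called in both lie in the lower left and upper right, 16 were called in 1 of them and 25 in neither, and Hsph1, Dnajb1, Dnaja1 and Hsp90ab1 lie below the line, called in vehicle-treated mice only.

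Among members that fell, those with the lowest p were the J-domain genes Dnajc28, Dnajb2 and Dnaja4. Dnajc28, a little-studied J-domain protein, had 4.65, 6.20 and 8.02 CPM in aged stroke bexarotene libraries, against 36.3, 33.6 and 34.2 CPM in aged bexarotene libraries (-2.47 ± 0.20, adjusted p = 2.12e-08, edgeR quasi-likelihood). With vehicle it had 7.86, 8.53 and 5.04 CPM after stroke, against 36.8, 26.3 and 34.1 CPM without (-2.18 ± 0.19, adjusted p = 7.38e-08, edgeR quasi-likelihood). Every stroke library lay below every library without stroke. Dnajb2 had 9.78, 13.9 and 8.46 CPM after stroke, against 35.5, 34.9 and 47.8 CPM without, in vehicle mice (-1.88 ± 0.19, adjusted p = 2.47e-07, edgeR quasi-likelihood). In bexarotene mice it had 7.87, 6.86 and 10.2 CPM after stroke, against 31.0, 25.2 and 25.1 CPM without (-1.70 ± 0.19). Dnajb2 also separated the groups in both treatments, as did Dnaja4 (-1.70 ± 0.20 with vehicle and -1.30 ± 0.20 with bexarotene). Wdr61, which overlaps Dnaja4, was at -0.05 ± 0.11 with vehicle and -0.14 ± 0.11 with bexarotene and was not called. The part of this overlap was not tested. Hspa12a fell by 1.69 ± 0.28 with vehicle and by 1.36 ± 0.28 with bexarotene.

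**Figure D5:**
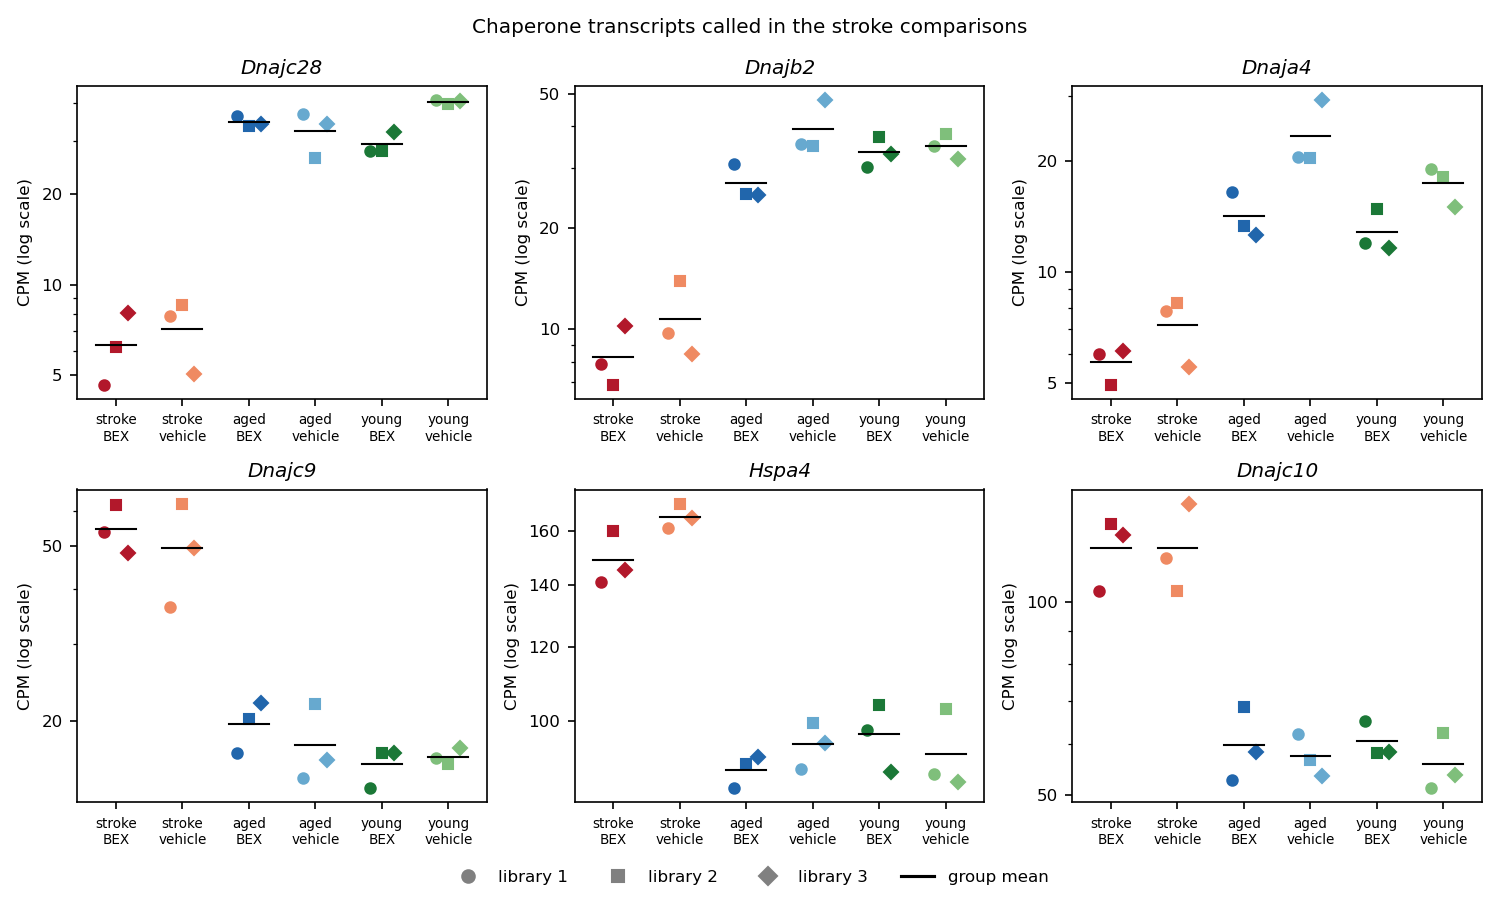
CPM on a log axis for 3 members that fell and 3 that rose with stroke, in each of the 18 libraries, with marker shapes for the library number and black lines for group means. Both stroke groups sit below all 12 other libraries for Dnajc28, Dnajb2 and Dnaja4 and above all of them for Dnajc9, Hspa4 and Dnajc10.

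Among members that rose, Dnajc9, which handles histones H3 and H4 in the nucleus, had 36.3, 62.4 and 49.5 CPM after stroke, against 14.9, 21.9 and 16.3 CPM without, in vehicle mice (1.48 ± 0.18, adjusted p = 2.68e-06, edgeR quasi-likelihood). In bexarotene mice it had 53.8, 62.1 and 48.2 CPM after stroke, against 16.9, 20.2 and 22.0 CPM without (1.47 ± 0.18). Hspa4, a cytosolic HSP110, had 161, 171 and 165 CPM after stroke, against 88.8, 99.3 and 94.7 CPM without, in vehicle mice (0.81 ± 0.09, adjusted p = 1.05e-06, edgeR quasi-likelihood). Its libraries were tightly grouped, and it rose by 0.75 ± 0.09 in bexarotene mice. Dnajc13, which works with HSP70 at endosomes, rose by 1.11 ± 0.16 with vehicle and 1.25 ± 0.16 with bexarotene, and the mitochondrial Dnajc15 by 0.83 ± 0.15 and 1.00 ± 0.16. The smaller rises were those of the ribosome-bound Dnajc2 (0.44 ± 0.11 with vehicle), Dnaja2, a cytosolic partner of HSP70 (0.37 ± 0.11), and Hspa9, the mitochondrial HSP70 (0.26 ± 0.10). The call of Hspa9 was lost under 12 of 15 alternatives (adjusted p from 0.0173 to 0.278). Dnajb13, known from sperm flagella and at 2.68 to 2.90 CPM after stroke against 0.587 to 1.25 CPM without in vehicle mice, rose by 1.53 ± 0.37. Of its exonic length, 11.2% overlaps the more abundant Ucp2 on the other strand, which rose by 0.96 ± 0.23. The part of this overlap was not tested.

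Members of the endoplasmic reticulum were called in both directions. Dnajc10, a disulfide reductase with a J domain that clears misfolded proteins, had 117, 104 and 142 CPM after stroke, against 62.3, 56.7 and 53.6 CPM without, in vehicle mice (1.07 ± 0.13, adjusted p = 2.38e-06, edgeR quasi-likelihood). Dnajb11, a lumenal partner of Hspa5, had 247, 274 and 273 CPM after stroke, against 151, 176 and 212 CPM without (0.56 ± 0.13, adjusted p = 0.00154, edgeR quasi-likelihood). Both separated the groups, and both also rose in bexarotene mice (1.01 ± 0.13 and 0.63 ± 0.13). Dnajb9, which restrains the stress sensor IRE1 and is itself a target of the unfolded protein response, had 74.7, 76.3 and 69.7 CPM after stroke, against 126, 154 and 168 CPM without (-1.02 ± 0.14, adjusted p = 9.35e-06, edgeR quasi-likelihood). Dnajc1, which sits in the same membrane, fell by 0.30 ± 0.11 with vehicle, a call lost under 9 of 15 alternatives. Hspa5 itself was not called, at 2187, 2811 and 2492 CPM after stroke against 1898, 2142 and 3168 CPM without in vehicle mice. Hsp90b1 was called higher with bexarotene (0.40 ± 0.13) and not with vehicle (0.23, 95% interval -0.04 to 0.50).

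The heat-inducible members that fell were Hspa1a, Hspa1b, Hsph1, Dnaja1, Dnajb1, Dnajb4 and Dnajb5. Dnajb5 had 16, 19.9 and 13.4 CPM after stroke, against 34.1, 29.4 and 27.3 CPM without, in vehicle mice (-0.88 ± 0.17, adjusted p = 2.48e-04, edgeR quasi-likelihood). Dnajb4 had 23.5, 25.1 and 26.6 CPM after stroke, against 32.2, 51.5 and 48.0 CPM without (-0.81 ± 0.17, adjusted p = 7.78e-04, edgeR quasi-likelihood). This pair of cytosolic J-domain genes separated the groups in both treatments and was called in all 15 alternatives of each. Dnajb1 had 70.4, 95 and 60.8 CPM after stroke, against 83.5, 166 and 201 CPM without (-0.99 ± 0.28, adjusted p = 0.00817, edgeR quasi-likelihood), and Hsph1 fell by 1.40 ± 0.39. Dnaja1 fell by 1.03 ± 0.34, Hspa1b by 3.11 ± 0.98 (adjusted p = 0.0192, edgeR quasi-likelihood) and Hspa1a by 2.66 ± 0.93. The stroke and no-stroke groups overlapped for all of these but Dnaja1, and all 5 had their highest level of the 18 libraries in aged vehicle library 3. The calls of Dnaja1, Hspa1a, Hspa1b and the constitutive Hsp90ab1 (-0.83 ± 0.28) were lost without that library, without aged stroke vehicle library 1 and without aged stroke vehicle library 3, with adjusted p of at most 0.177. Without aged vehicle library 3 and aged bexarotene library 1 those of Dnajb1 and Hsph1 were too (adjusted p = 0.0515 and 0.0548, edgeR quasi-likelihood), a setting chosen after the data were seen.

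In bexarotene mice 4 of these 7 genes were not called, while no difference between the treatments was called either. Dnajb1 was at -0.49 (95% interval -1.09 to 0.11), Hsph1 at -0.55 (95% interval -1.38 to 0.28), and Hspa1b fell by 2.62 ± 0.99 (adjusted p = 0.0449, edgeR quasi-likelihood), a call lost under 9 of 14 alternatives. Hsp90aa1 and Hspe1 were called higher in bexarotene mice, at 231, 283 and 245 CPM after stroke against 182, 160 and 128 CPM without for Hsp90aa1 (0.69 ± 0.22, adjusted p = 0.0159, edgeR quasi-likelihood). With vehicle, Hsp90aa1 had 232, 298 and 248 CPM after stroke, against 187, 190 and 374 CPM without (0.05, 95% interval -0.41 to 0.51). The groups overlapped with vehicle through aged vehicle library 3 and did not overlap with bexarotene. The remaining members called lower with vehicle were Dnajc7 (-0.86 ± 0.13), a co-chaperone of both HSP70 and HSP90, Dnajc18 (-0.48 ± 0.14), Dnajc24 (-0.37 ± 0.14) and Dnajb12 (-0.32 ± 0.12). Those called only in bexarotene mice were Dnajb14 (higher) and Dnaja3, Dnajb7, Dnajc12, Dnajc19, Hspa13 and Hspbap1 (lower), and Dnajb7 rested on at most 1.53 CPM in any library.

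Partners of the machinery outside the name rule were read beside the members, where 27.2% of all genes were called higher and 21.1% lower with vehicle, and 26.8% and 21.2% with bexarotene. Of 31 co-chaperones, 3 rose and 13 fell with stroke in vehicle mice, with a median of -0.32. Bag1, a nucleotide exchange factor of HSP70, rose by 1.35 ± 0.11 and Bag4, of the same family, fell by 0.71 ± 0.14, and Ppid, a prolyl isomerase that binds HSP90, fell by 0.73 ± 0.14. In bexarotene mice 3 co-chaperones rose and 6 fell, with a median of -0.17. Of 8 subunits of the cytosolic chaperonin, Cct2 (0.71 ± 0.11) and Tcp1 (0.67 ± 0.14) rose in vehicle mice. Hsf1, the heat shock factor itself, fell by 0.79 ± 0.15 with vehicle, at a mean of 33.5 CPM after stroke and 57.9 CPM without. Of 19 immediate early genes tested, 14 rose, with a median of 2.08 and the lowest p for Ier3 (3.36 ± 0.30). Of 9 genes listed for ATF4 and CHOP, factors of the integrated stress response, 7 rose, among them the serine synthesis gene Psat1 (1.93 ± 0.24). Transcripts of the factors themselves, Atf4 (0.14 ± 0.10) and Ddit3, which encodes CHOP (-0.31 ± 0.22), were not called. Of 12 genes listed for XBP1 and ATF6, factors of the unfolded protein response, 3 rose and 3 fell, Xbp1 itself among the latter. Sec61b was at 1.26 ± 0.14 and Herpud1 at -0.98 ± 0.20.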

How the data were processed

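RNA of CD11b-selected brain cells was sequenced in 18 libraries (6 groups of 3), which the labels call biological replicates. The authors deposited whole-number counts per gene without normalization, and per the submitters' processing notes Trimmomatic 0.40, STAR 2.7.10a, GATK, R 4.4.2 and build GRCm39 were used, while strand handling is not given. The authors also deposited tables of their comparisons with a mean normalized signal (baseMean, not printed here), a log2 fold change and an adjusted p-value, in which only genes with an adjusted p under 0.05 stand, per the file headers and values. Symbols came from GENCODE M21 (GRCm38) and these tables. The 4977 of 57010 genes without a symbol held 0.326% of counts and stayed in the tests.

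Counts were fitted in R 4.3.3 with edgeR 4.0.16 (TMM scaling, filterByExpr, robust quasi-likelihood, 6 groups, 18 libraries), with Benjamini-Hochberg (BH) adjustment over 15528 genes and calls at 0.05. CPM are counts over library total times TMM factor. SE were derived from the F statistic with the fold change. Alternatives were RLE scaling, no filter, DESeq2 1.42.0, voom in limma 3.58.1, only the groups compared, a replicate term, no libraries numbered 1, and leaving out each library. A setting without aged vehicle library 3 and aged bexarotene library 1, DESeq2 on the compared groups alone and the stroke contrast in bexarotene mice were added after the data were seen. The fit was tested on simulated counts. Replicates differed by far more than sampling noise (chi-square per degree of freedom 6.22 to 42.0). The members and lists were chosen with earlier results of these data known. Named genes are called members, the heat-inducible list, the 5 members with the lowest p where none was called, and the 5 most abundant, which are given per kilobase in the order of that scale.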

Additional observations from a re-analysis of the deposited data

Results flagged for a closer look

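Dnajc19 was the one member of 63 whose bexarotene libraries all lay on opposite sides of vehicle in different settings. Its log2 fold change of bexarotene over vehicle was -0.11 ± 0.10 in aged mice with stroke, 0.22 ± 0.11 in aged mice without stroke and 0.08 ± 0.11 in young mice (SE, 3 libraries per group). The difference between aged mice with and without stroke, -0.33 ± 0.15, was not called (adjusted p = 1, edgeR quasi-likelihood).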

How the results depend on the processing

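Of 61 called pairs of member and comparison, 36 kept their call under every alternative run, 25 lost it under at least 1 and 0 reversed, and 810 of 922 recomputed values kept direction and side of the threshold. Without a filter on low counts, members called were 2 for bexarotene in aged mice with stroke, 10 in aged mice, 8 in young mice, 14 for the mean effect, 8 for age, and 2 and 4 for the differences aged minus young and stroke minus no stroke, while the same fit called 419, 339, 457, 953, 677, 138 and 256 of 31653 genes. The calls without a filter take in Hspa1b for bexarotene in aged mice and for age, where its groups overlapped. DESeq2 called 1 member in young mice and 4 for the mean effect, and 3 in young mice when fitted to those groups alone. The mean effect gave 3 calls with the replicate block, 0 without the 6 libraries numbered 1, 3 without aged vehicle library 3 and aged bexarotene library 1, and 0 to 4 with 1 library left out. Leaving out 1 library gave 0 to 1 for age, 20 to 31 for stroke with vehicle and 26 to 30 for stroke with bexarotene. The causes were not tested.

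The sign of some uncalled or weakly supported log2 fold changes turned. For stroke with vehicle, Hsp90aa1 was -0.08 without the libraries numbered 1, -0.00 with DESeq2 on the groups compared and -0.15 to 0.43 with 1 library left out. Hspa4l was 0.04 without aged vehicle library 3 and aged bexarotene library 1, and -0.79 to 0.04 with 1 left out. Hspe1 was -0.07 without the libraries numbered 1 and -0.13 to 0.42 with 1 left out. For aged minus young, Hspa1b was -1.74 and Hspa1a -1.47 without the libraries numbered 1, and -0.71 to 2.28 and -0.65 to 2.16 with 1 left out. For stroke minus no stroke, Hspa1a was -0.19 to 2.59 with 1 left out, and for stroke with bexarotene it was 0.20 without the libraries numbered 1. The cause was not tested.

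Same-numbered libraries correlated at -0.13 to 0.45 in their deviations from group means (median 0.12, 29 of 45 pairs over 0.1) and differently numbered ones at -0.40 to 0.22 (median -0.08, 10 of 90 over 0.1). Since the labels tie no number to a batch and some same-numbered pairs were under 0.1, the block was kept as an alternative. With the replicate block 31 members were called for stroke with vehicle and 32 with bexarotene. RLE scaling shifted the median of all genes by at most 0.025 in size. At these depths 11 members, at no more than 0.267 CPM on average, were too low to be tested.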
